A study of Drosophila melanogaster with 3 samples.

Results

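The X chromosome of Drosophila melanogaster held 1480 of the 7717 peaks called for the protein CG31627 in whole white prepupae, or 19.2% of the list. They were chosen by position alone, as every peak on the X in the list that the authors filtered by irreproducible discovery rate (IDR), a measure of whether peaks rank alike across libraries. They are compared below with the 6209 peaks of the large autosome arms 2L, 2R, 3L and 3R. The study made 3 ChIP-seq libraries of 1 group from a stable transgenic line in which GFP was joined to the C-terminus of CG31627. Each library came from whole animals of unknown age, with males and females pooled in a ratio the labels do not give. One label states that the precipitation used an antibody to GFP, another names the antibody after CG31627, and the sonicated chromatin had a stated size range of 200 to 800 bp. The transgenic fusion stands in for the native protein throughout, and signal from different tissues of the animal cannot be told apart. Replicate 2 had the smallest share of its full peak list on the X, 14.4% against 17.8% and 18.9% in replicates 1 and 3, and comparisons between libraries rest on the 7717 strongest peaks of each.

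Male flies carry a single X and females carry a pair. In males the MSL complex, which includes the acetyltransferase mof and the non-coding RNAs roX1 and roX2, acetylates histone H4 along active X-linked genes and raises their transcription to match the autosomes. In females the protein Sxl keeps that complex from forming.

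Example windows of X peaks are shown first, on the plus strand of dm6. Each is 101 bases centred on the summit, the position of highest signal in a peak. The strongest promoter, intron and intergenic peaks of the X lie at Ugalt (chrX:2703840-2703940), ph-p (chrX:2137288-2137388), CG32772 (chrX:4910314-4910414), LPCAT (chrX:9579247-9579347) and CG17896 (chrX:493946-494046). They are printed to show the A and T content at the summit, which was 65.3% at Ugalt, 68.3% at ph-p, CG32772 and CG17896 and 67.3% at LPCAT. In the other printed windows, described next, it was 57.4% at MFS10, 54.5% at RpS10b, 63.4% at CG9992 and 61.4% at CG2200. The whole X had 57.4%. MFS10 (chrX:13131299-13131399), among the 5 strongest promoter peaks, has a match in capitals to CGATA, the core bound by the boundary factor BEAF-32, here read on the other strand. RpS10b (chrX:19597939-19598039), CG9992 (chrX:16384976-16385076) and CG2200 (chrX:13094276-13094376) are the strongest X promoter peaks with the element DRE, TATCGATA, and there the capitals mark DRE alone.
Ugalt: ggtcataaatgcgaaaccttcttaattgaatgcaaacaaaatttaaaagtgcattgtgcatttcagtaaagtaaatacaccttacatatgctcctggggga
ph-p: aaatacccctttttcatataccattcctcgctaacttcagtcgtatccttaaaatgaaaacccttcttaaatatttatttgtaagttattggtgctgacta
CG32772: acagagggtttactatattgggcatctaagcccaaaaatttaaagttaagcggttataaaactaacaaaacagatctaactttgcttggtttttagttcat
LPCAT: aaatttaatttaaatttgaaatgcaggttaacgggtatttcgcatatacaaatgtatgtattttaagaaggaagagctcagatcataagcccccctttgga
CG17896: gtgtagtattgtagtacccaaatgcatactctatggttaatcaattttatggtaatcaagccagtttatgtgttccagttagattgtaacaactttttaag
MFS10: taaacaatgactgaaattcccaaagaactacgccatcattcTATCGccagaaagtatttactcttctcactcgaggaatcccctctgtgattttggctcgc
RpS10b: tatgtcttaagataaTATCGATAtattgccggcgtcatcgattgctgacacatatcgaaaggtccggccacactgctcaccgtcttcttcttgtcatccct
CG9992: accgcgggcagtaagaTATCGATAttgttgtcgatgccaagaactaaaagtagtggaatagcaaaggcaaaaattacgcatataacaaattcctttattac
CG2200: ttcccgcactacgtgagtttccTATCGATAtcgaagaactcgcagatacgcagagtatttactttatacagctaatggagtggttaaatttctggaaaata

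The strongest peak of the X stood at the promoter of Ugalt, a transporter of UDP-galactose. Its signal value, the authors' own and used only to rank and describe peaks, was 4503 and ranked 3 of 7717, with its summit 38 bp upstream of the start site. The overlapping peaks of the single libraries ranked 4, 3 and 3 in their own lists. The next promoter peak was that of ph-p, which encodes a Polycomb group protein. It ranked 22, and ranked 19, 23 and 19 in the libraries. The non-coding gene lncRNA:CR44619 had peaks at ranks 31, 32 and 248 at its promoter and in its exon. Other leading promoter peaks lay at Ptpmeg2, a tyrosine phosphatase with peaks at ranks 80 and 288, MFS10 at 87, Hexo2, a hexosaminidase, at 105, CG3009 at 122 and pdgy at 131. They were followed by bbx, an HMG-box protein, at 149, the kinase gene sgg of Wnt signalling at 151 and bves at 162. The bves summit also lay within 500 bp of a start of Stt3A. The glycolytic enzyme gene Gapdh2 stood at 165. The list of the 20 strongest went on with lncRNA:CR34052 (174), CG8034 (220), TRAM (227) and CG2930 (243), whose summit also lay within 500 bp of a start of yin. After these came the histone methyltransferase gene Hmt4-20 (246), CG11151 (250) and elav (267), the neuronal RNA-binding protein gene, whose peak was as close to the start of lncRNA:enrr. Apart from Ugalt and TRAM, with summits 38 and 78 bp upstream, these summits lay at least 152 bp from the nearest start site. At the other end of the list, the weakest X peaks were at regucalcin (rank 7700, with no overlapping peak in replicate 1) and Pits (rank 7715).

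The X differed most clearly from the autosomes in where its peaks lay. A summit was called promoter within 500 bp of an annotated start site, and otherwise by the exon, intron or intergenic sequence under it. Introns held 744 of the 1480 X summits, 50.3%, against 36.6% on the large autosomes, where single arms ranged from 35.4% on 2L to 38.1% on 3R. When each library was limited to its 7717 strongest peaks, the intron share of the X was 49.7%, 51.1% and 48.1% in replicates 1, 2 and 3. The autosomal shares were 36.8%, 38.0% and 35.7%. The X was higher in all 3 libraries, by 12.8 ± 0.359 percentage points (SD, n = 3), a gap far wider than the spread between libraries. The exact permutation test over sign flips of the 3 library differences gave p = 0.25, two-sided, which is the smallest p that 3 libraries allow, so no comparison here could reach 0.05.

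The lower share was that of intergenic sequence. It held 128 X summits, 8.65%, against 18.8% on the autosomes, with arms from 14.1% on 2R to 24.6% on 3L. In the libraries the X share was 9.03%, 9.91% and 8.96%, and the autosomal share 17.8%, 20.7% and 18.1%. The difference of -9.57 ± 1.10 percentage points (SD, n = 3) had the same direction in 3 of 3 libraries (exact permutation p = 0.25). Promoters held 559 X summits, 37.8% against 42.6%. In the libraries the promoter difference was -4.68 ± 1.21 points (SD, n = 3; exact permutation p = 0.25), but the X value lay inside the range of the autosome arms, since 3L had 37.4%. The 3′ untranslated regions held 24 X summits, 1.62%, against 40 on the autosomes, 0.644%. Coding sequence held 5 X summits, in Ubr1, Snx27, su(w[a]), Bx overlapped by HisRS, and l(1)G0196, the best of them, in Ubr1, at rank 2840.

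**Figure D1:**
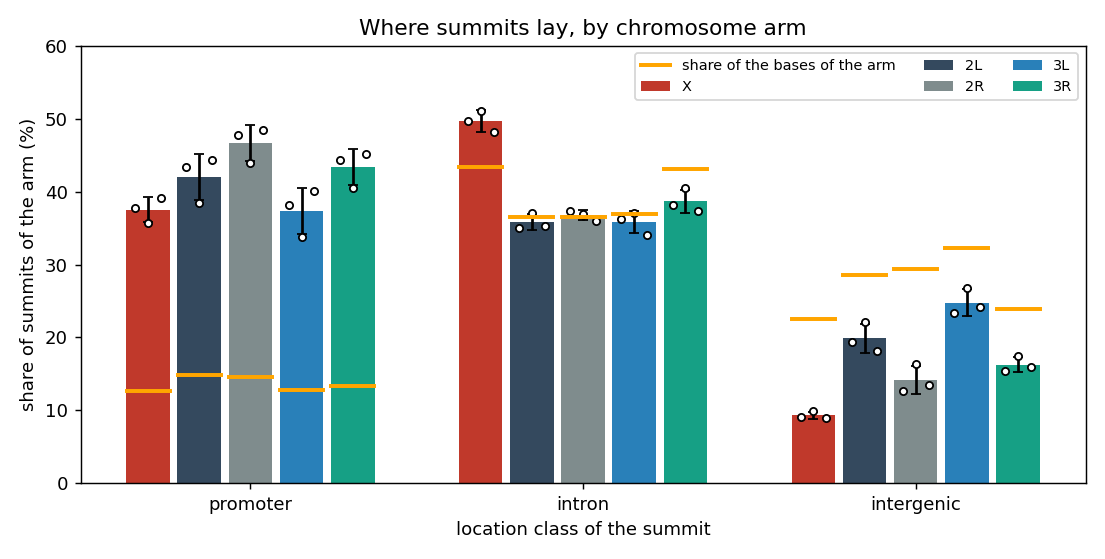
Share of summits (%) in promoters, introns and intergenic sequence for the X and each large autosome arm. Bars are means of 3 libraries, error bars SD, circles single libraries and orange lines the share of the arm's bases in that class. The X intron bar, 49.7%, stands above its orange line at 43.3%, while no autosome arm's bar stands more than 1 SD above its own.

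The X also had the largest share of intron sequence, closely followed by 3R. Introns covered 43.3% of the bases of the X and between 36.5% and 43.1% of those of the autosome arms, and intergenic sequence covered 22.6% of the X. Counted per megabase of introns, the X still had more summits, 72.9 against 54.0, with arms from 49.7 on 3R to 57.7 on 2L. The library means were 72.0 ± 2.35 and 54.4 ± 1.97 summits per megabase (SD, n = 3). Arm 3R, whose introns covered 43.1% of it, nearly as much as on the X, had the fewest intron summits per megabase of the 4 arms. Per megabase of intergenic sequence the X had 24.1 summits against 37.8, just under 25.7 on 2R. Per megabase of promoter windows it had 188 against 176. When non-coding genes were left out of the annotation, 48.6% of X summits were intronic against 37.1%, and 13.0% were intergenic against 22.0%.

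The X intron peaks were spread over 255 host genes when each summit was given to the longest gene over it, and 40 hosts with 5 or more summits held 48.4% of them, against 40.0% for such hosts on the autosomes. The most, 27, lay in kirre, an adhesion gene of myoblast fusion that spans 394 kb, and 26 lay in lncRNA:CR44357. The counts in the single libraries were 26, 31 and 26 for kirre and 24, 28 and 26 for lncRNA:CR44357. Mnt, which encodes a partner of Max and antagonist of Myc, had 16 intron summits within 29.9 kb, or 5.36 per 10 kb of gene, with 15 in each library. This was the densest of the 15 hosts with the most summits, against 0.685 per 10 kb in kirre. Further hosts were lncRNA:CR32773 and lncRNA:CR44833 with 15 each, CG43658 with 13, the kinase gene Tlk and lncRNA:CR44999 with 12, the LIM-only gene Bx and RhoGAP19D with 11, and the kinase gene Raf with 10. The X also had more long genes, with 3.14% of its protein-coding genes over 50 kb against 2.03% on the autosomes. Median distance from an intron summit to the nearest start site was 3038.5 bp on the X and 3141 bp on the autosomes. The 5 strongest intron peaks of the X lay in CG32772 (rank 18), the lysophospholipid acyltransferase gene LPCAT (37), the phospholipase C gene norpA (43), the glucose-6-phosphate dehydrogenase gene Zw, nearest to the start of asRNA:CR44512 (47), and CG3726 (49). The strongest intergenic peak, nearest to CG17896 and 501 bp upstream of its start, fell 1 bp outside the promoter window and ranked 101. The next were nearest to CG12643 (158), lncRNA:CR42794 (167), CG43658 (179) and the transcription factor gene Atf3 (489).

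Over whole arms, peaks were slightly denser on the X, though not once 1 Mb blocks with few summits were left out. The X had 62.9 peaks per megabase against 57.0, with arms from 53.5 to 59.5, and the median distance between neighbouring summits was 5356 bp against 5905 bp, with arms from 5489 to 6434 bp. In the libraries the X had 60.7, 63.0 and 64.9 peaks per megabase and the autosomes 57.4, 57.0 and 56.4, which do not overlap. The ratio of X to autosomes was 0.14 ± 0.06 on the log2 scale (SD, n = 3), higher in 3 of 3 libraries, and that of the median spacing was -0.13 ± 0.08 (exact permutation p = 0.25 for both). Among the strongest 3858 peaks the density ratio was 0.03. The single 1 Mb blocks of the X held from 4 to 97 summits, with 7 and 4 in the last 2, next to the centromere, the final block being shorter than 1 Mb. The median block held 62.5 summits on the X and from 59.5 to 66 on the autosome arms, the highest on 2R. Blocks with fewer than 10 summits numbered 2 of 24 on the X and 17 of 109 on the large autosomes, 6 of them on 2R, 5 on 3L, 4 on 3R and 2 on 2L. Without these blocks the density was 66.8 per megabase on the X and 67.0 on the autosomes, with arms from 63.1 to 71.4, and the libraries differed in direction (exact permutation p = 0.75). Leaving out the 6 Mb next to the centromere of every arm gave 70.7 against 67.7. That was a ratio of 0.06 on the log2 scale (exact permutation p = 0.25). Both of these settings were chosen after seeing the data. The blocks were also chosen by their own summit count, the quantity compared, so leaving them out cannot decide where the X is denser. Windows of 100 kb without a summit made up 11.1% of the X (26 of 235) and between 13.6% and 22.6% of the autosome arms. Outside the blocks with few summits they made up 7.27% of the X and from 5.21% to 10% of the autosome arms, a range that spans the X.

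The widest gap between X summits ran for 848 kb, from 21631708 to 22479554, and contained 30 genes. Its left border was a summit 183 bp upstream of the start of lncRNA:flam, the flamenco locus that gives rise to piRNAs against transposable elements, at rank 5779. Its right border lay in CG12576 at rank 2866. The densest windows of 100 kb on the X held 19 summits each, from 5000001 to 5100000 and from 13300001 to 13400000. Each autosome arm had a denser window, with 21 summits on 2L, 22 on 2R, 28 on 3L and 27 on 3R. In the first X window, 9 summits lay within 22753 bp upstream of the start of ovo, a zinc finger gene of the germline and epidermis, inside the overlapping lncRNA:CR44833. The strongest of these was 1532 bp from the ovo start, at rank 773 and at ranks 703, 852 and 874 in the libraries. Another 2 summits lay inside ovo at ranks 4381 and 7032, and none came within 500 bp of its start sites. The same window held 3 peaks at CG32767, the best at rank 285, and 4 downstream of the shared start of CG15465 and rg. These 4 summits lay 287, 488, 1284 and 1494 bp from that start, and the intervals of the first 2 overlapped. The second X window covered IP3K2 with 6 summits, an inositol phosphate kinase gene, Prx2, RpS15Aa, CG1640 and Bcat. Its best peak, in IP3K2, ranked 1429.

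Peak signal was compared by percentile within a list, where 100 is the strongest peak, with no correction for the copy number of the X in the pool. The median X peak stood at the 47.1 percentile and the median autosomal peak at 50.9. In the libraries the X stood at 47.1, 46.4 and 47.9 and the autosomes at 50.7, 50.9 and 50.8, a difference of -3.65 ± 0.812 (SD, n = 3; exact permutation p = 0.25). In the IDR-thresholded list promoter peaks differed most, at 47.8 on the X against 55.3, with arms from 53.5 to 57.3. The promoter medians of the libraries were 46.3, 49.1 and 49.4 on the X and 54.3, 58.3 and 54.8 on the autosomes, with no overlap between them. Intron peaks had medians of 48.8 ± 1.80 and 48.9 ± 0.740 (SD, n = 3), which overlapped. Intergenic peaks stood at 40.0 ± 1.16 on the X against 45.8 ± 2.69. In replicate 3 the intergenic difference, -5.87, was wider than that of promoter peaks, -5.39. The lower median of the X came with more weak promoter peaks. Of X promoter peaks, 27.0% ranked in the weakest 25% of the list against 21.7% on the autosomes, and 26.1% ranked in the strongest 25% against 29.3%. Among the strongest 3858 peaks alone, the promoter difference turned to 0.492 and that of all peaks to 0.933.

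**Figure D2:**
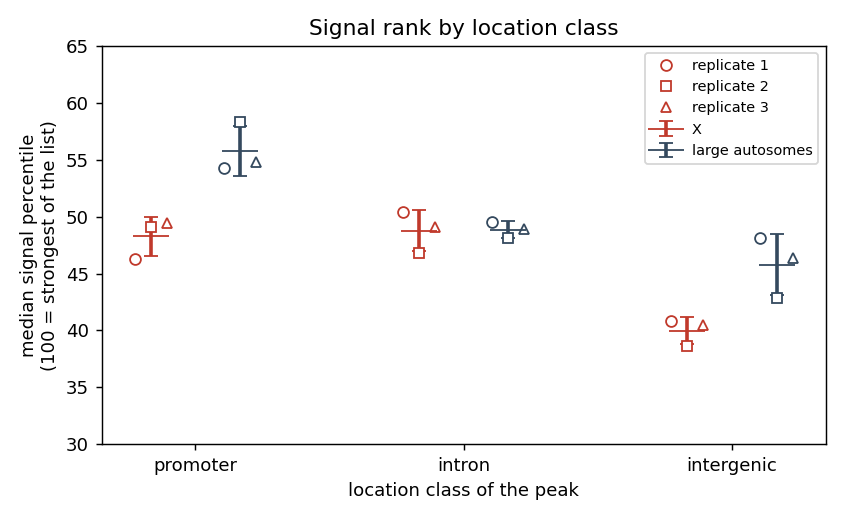
Median signal percentile of promoter, intron and intergenic peaks on the X and the large autosomes in each library's 7717 strongest peaks. Symbols are libraries, bars the mean and whiskers the SD. The promoter values of the X, 46.3 to 49.4, lie below the autosomal ones, 54.3 to 58.3, while the intron values overlap.

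Promoters with start sites on both strands separated the X from the autosomes. A promoter peak was placed in this class where starts of protein-coding genes on both strands lay within 500 bp of the summit. The class held 146 of the 559 X promoter peaks, 26.1%, against 35.3% on the autosomes, with arms from 31.7% to 39.7%. The libraries gave 25.2%, 24.3% and 26.4% on the X and 34.7%, 35.1% and 35.4% on the autosomes, a difference of -9.74 ± 0.913 points (SD, n = 3; exact permutation p = 0.25). Among all protein-coding start sites, 30.7% on the X and 32.7% on the autosomes had a start of the opposite strand within 1000 bp. That share counts start sites, not summits, so the sizes of the differences cannot be compared. On every autosome arm the peaks of this class were stronger than other promoter peaks, with medians at percentile 64.1 and 51.1 over the 4 arms. On the X they were not, with medians of 45.1 and 49.9. The gap between the classes in the libraries was -5.77, 4.08 and -2.68 percentile points on the X and 10.5, 13.2 and 13.8 on the autosomes. It was smaller on the X in 3 of 3 libraries, with an X minus autosome difference of -14.0 ± 4.20 points (SD, n = 3; exact permutation p = 0.25). For the other promoter peaks the X minus autosome difference was -2.55 ± 3.88 points (SD, n = 3; exact permutation p = 0.5), within the spread between libraries. These classes were defined after the values of the promoter peaks were seen.

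X promoter summits also lay farther from start sites. The median distance was 147 bp on the X and 117.5 bp on the autosomes, with arms from 111 to 120 bp. In the libraries it was 152, 159.5 and 141 bp on the X and 114, 125 and 116 bp on the autosomes, which do not overlap (difference 32.5 ± 6.73 bp, SD, n = 3; exact permutation p = 0.25). Summits within 100 bp of a start made up 32.4% ± 1.96 of X promoter summits and 42.8% ± 2.60 of autosomal ones (SD, n = 3). Most summits lay upstream of the nearest start on both, 80.6% ± 0.689 and 82.1% ± 1.37.

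**Figure D3:**
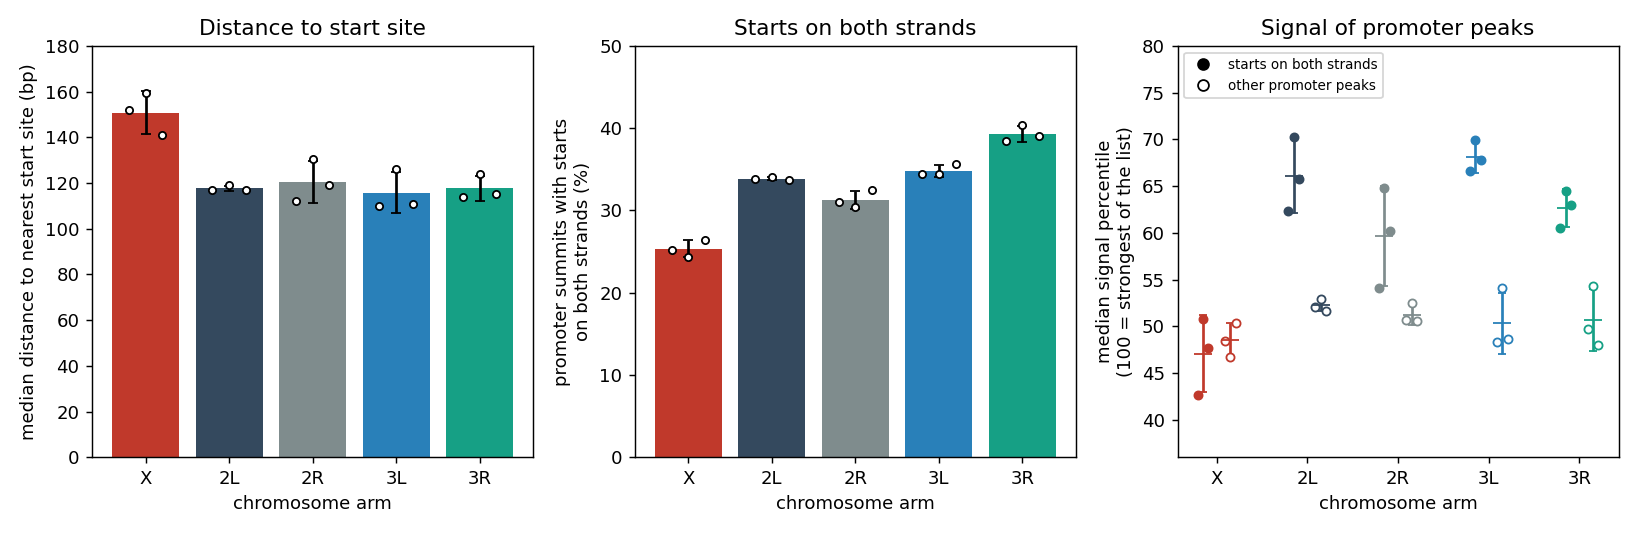
Promoter summits by chromosome arm in each library's 7717 strongest peaks, as the median distance to the nearest start site in bp (left), the share with protein-coding starts on both strands within 500 bp in % (middle) and the median signal percentile of both classes of promoter peak (right). Bars or dashes are means, whiskers SD and circles libraries (n = 3). The X has the longest distance, mean 151 bp, the lowest both-strand share, 25.3%, and overlapping signal in the classes, 47.1 and 48.5.

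In the IDR-thresholded list the X share changed little along the ranking, apart from the small count among the 100 strongest peaks. The X had 14 of those 100, 96 of the 500 strongest (19.2%), 19.6% of the 1000 strongest, 18.2% of the 4000 strongest and 19.2% of all. The lower X share of replicate 2 came from its weak peaks. It was 19.2% among the 7717 strongest, 13.5% among the next 7717 and 12% among the rest, while that of replicate 3 was 19.8%, 19.6% and 17.7% and that of replicate 1 was 18.5%, 19.3% and 16.6%. At a q value of 0.05 or less the shares were 18.7%, 19.0% and 20.2%. Of the X peaks, 76.9% (1138) overlapped one of the 7717 strongest peaks in all 3 libraries, against 77.9% on the autosomes.

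**Figure D4:**
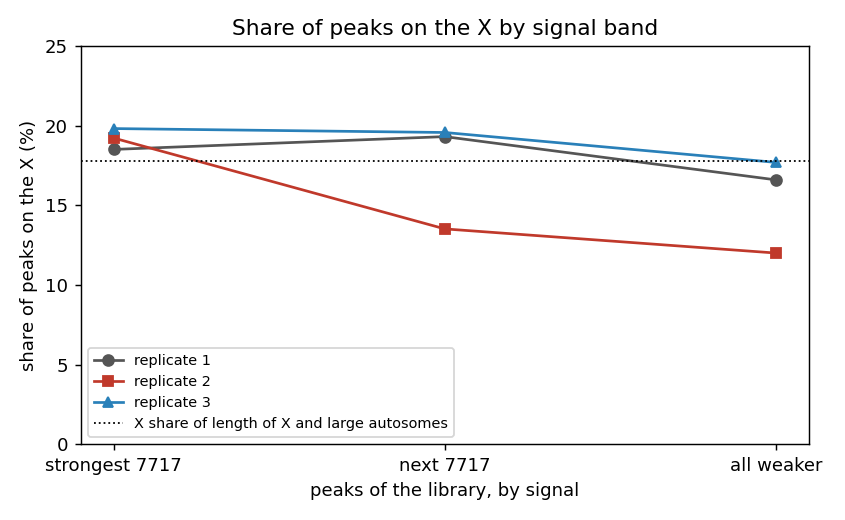
Share of each library's peaks on the X (%) among its 7717 strongest peaks, the next 7717 and all weaker ones, 1 line per library. The dotted line is the X share of the summed length of the X and large autosomes. Replicate 2 drops to 12% in the weakest band, while replicates 1 and 3 end at 16.6% and 17.7%.

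Bases near X summits were rich in A and T. Within 50 bp of the summit, A and T made up 63.4% of bases at X promoter peaks, 67.1% at intron peaks and 65.8% at intergenic peaks, against 57.4% of the whole X. The autosomal values were 64.6%, 67.6% and 67.3%. Over the libraries the promoter values were 63.4% ± 0.262 and 64.4% ± 0.365 and the intron values 66.7% ± 0.674 and 67.1% ± 0.532 (SD, n = 3), the latter overlapping.

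**Figure D5:**
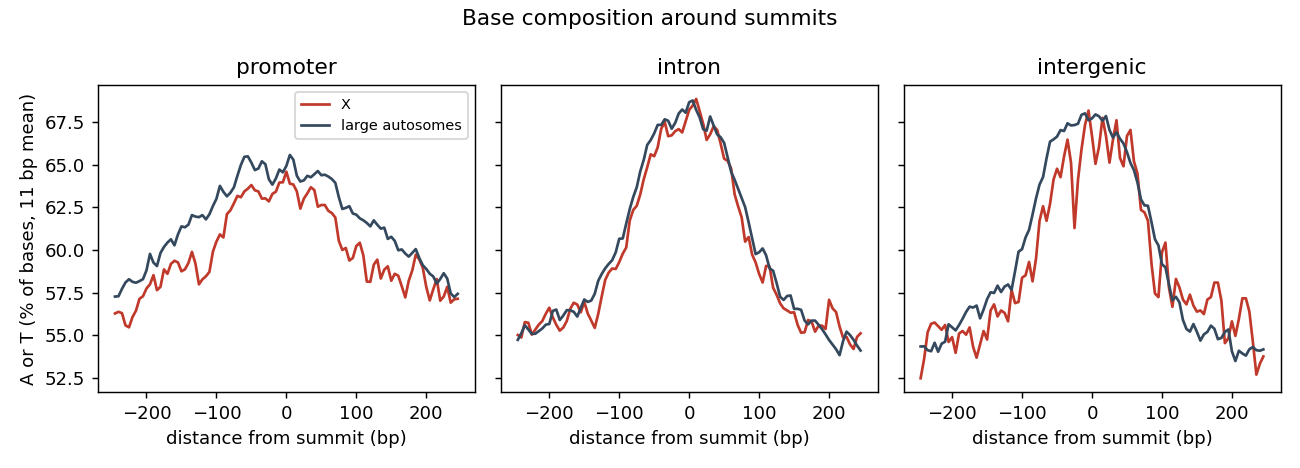
Share of A and T bases (%, running mean of 11 bp) by distance from the summit for promoter, intron and intergenic peaks of the X and the large autosomes in the IDR-thresholded list. All curves are highest near the summit, and within 50 bp the X promoter mean is 63.4% against 64.6%.

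Short motifs within 50 bp of promoter summits, searched on both strands, are given beside their share at all start sites of the same arms. DRE, TATCGATA, was present at 5.01% of X promoter summits and 3.44% of autosomal ones, while windows of the same length at all start sites held it at 5.02% and 3.50%. DRE was more frequent on the X in 2 of 3 libraries, by 0.428 ± 1.00 points (SD, n = 3; exact permutation p = 0.75), which is within their spread, and replicate 2 had 3.02% against 3.55%. CGATA, which overlaps DRE, was present at 25.2% and 22.0%, and at 25.9% and 20.5% of all start sites. Among the strongest 3858 peaks both differences turned, DRE to -0.667 and CGATA to -2.50 percentage points. TATAAA was less frequent on the X, at 14.8% against 18.6%, as it was at start sites, with 12.1% against 15.5%. It was lower in 3 of 3 libraries, with a difference of -3.50 ± 0.780 points (SD, n = 3; exact permutation p = 0.25). CACACACA was found at 8 X promoter summits, 1.43%, and at 0.492% of autosomal ones, against 3.01% and 1.91% of windows of the same length along the arms and 2.64% and 1.77% of start sites. GAGAGAG was found at 1.61% and 1.10%, and at 2.15% and 1.40% of start sites. Ohler motif 7 was found at 3.94% and 5.60% of promoter summits and at 4.22% and 3.92% of start sites. Ohler motifs 1 and 6 were found at 2 X promoter summits each, and start sites of the X held them at 2.48% and 0.486%.

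Of the 2813 genes annotated on the X, 640 had a summit within 500 bp of a start site, 22.8%, against 22.2% on the large autosomes and 22.3% over all 6 arms. The libraries differed in the direction of this difference, 0.539 ± 0.879 points (SD, n = 3; exact permutation p = 0.5), which is within their spread. Without the 6 Mb next to each centromere the shares were 24.4% and 22.3%. Cytosolic ribosomal protein genes were bound on the X in 14 of 14 cases, against 58 of 77 on the autosomes (75.3%), where arms ranged from 69.6% on 3R to 92.9% on 3L (13 of 14). The X list was every gene with a symbol starting RpL or RpS, without a filter for paralogues. Whether the autosomal genes were of the same make-up was not tested. In the libraries 14, 12 and 14 of the X genes were bound, and 13, 12 and 13 of the 14 on 3L. The strongest of these peaks were at RpS28b (rank 1386), RpL17 (1535), RpS5a (1642) and RpS10b (1807). Their summits lay 38, 63, 78 and 42 bp from a start. Mitochondrial ribosomal protein genes stood at the other extreme. Of 11 on the X only mRpL16 was bound, by a peak at rank 4966 that it shares with the neighbouring trr, against 37 of 62 on the autosomes (59.7%). The libraries gave 1, 2 and 3 of 11 X genes against 56.5% ± 1.61 of the autosomal ones (SD, n = 3). The nearest X summits to mRpS25 and mRpL33 were 505 and 640 bp away, so a window of 1000 bp counted 3 of 11.

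None of the 3 X-linked dosage compensation genes listed was bound in the IDR-thresholded list, where 22.8% of all X genes were. A list of 3 genes is too small for more than this count. No peak of the IDR-thresholded list lay within 500 bp of a start of mof, lncRNA:roX1 or lncRNA:roX2, and the nearest summits were 2787, 4550 and 1441 bp away. All 3 libraries nonetheless had a summit near a start of lncRNA:roX1, at signal values of 66.1, 43.5 and 43.9 and ranks 5202, 4630 and 6378 of their lists. In the list of the pooled libraries its peak ranked 8871, with a signal of 87.2, below the 103 of the weakest X peak past the IDR threshold. Of 5 X-linked genes listed for sex determination, Sxl was bound, at rank 1291 and 377 bp from a start. The genes sc, sisA, upd1 and run, which make up the X dose signal that Sxl reads, were not.

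Among 11 chromatin genes of the X, 7 were bound. Besides ph-p these were Top1, a topoisomerase, at rank 1263, ph-d, the neighbouring copy of ph-p, at 2486, e(y)2, a subunit of SAGA, at 2511, fs(1)h, a BET bromodomain protein, at 2589, HP1b at 3272 and the histone methyltransferase trr at 4966. As ph-p and ph-d are similar in sequence, reads could have been split between them, as between the neighbouring copies RpS14a and RpS14b. Such a split was not tested. Of 12 developmental regulators, 4 were bound: sgg at rank 151, the receptor gene N at 5574, Bx at 6366 and the beta-catenin gene arm at 7695. Of 8 neuronal genes, 3 were bound, namely dnc, a cAMP phosphodiesterase, at rank 310, norpA at 3008 and the adenylyl cyclase gene rut at 6337. Of 5 genes matched in the ecdysone list, usp, the partner of the ecdysone receptor, was bound at rank 1443 and the ecdysone-induced br at 7078. Hr4 had 9 summits inside the gene but none within 500 bp of its starts, the nearest being 1774 bp away. Of 12 genes known for visible mutants, cv (rank 5495) and car (3582) were bound, and of actin and muscle genes Act5C (1514) but not wupA. Read against 22.8% of all X genes, these lists are too small for more than their counts, and they were drawn up with earlier results of these data known. Of their bound genes, rut was bound in 1 library, trr, br, Bx and arm in 2, and the others in 3.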

How the data were processed

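ChIP-seq peaks were taken from 10 deposited narrowPeak lists, 5 per build (dm6 and dm3), and the dm6 lists were used throughout except in 1 alternative. The signal value of a peak is a score deposited by the authors whose scale is unstated, and it was used for ranks within a list. The q value was deposited by the authors as −log10 of q. Aligner, caller and version numbers: not given in the sources used here. The lists hold no read counts, so depth is unknown, and control data and signal tracks were not analysed here.

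Each library was limited to its 7717 strongest peaks on the 6 arms, as many as the IDR-thresholded list holds. Summits were classed with the Ensembl release 115 annotation, without transposable elements, in the order promoter, 5′ UTR, coding, 3′ UTR, non-coding exon, intron, intergenic. Bases came from the Release 6 genome of RefSeq. The IDR-thresholded list gives the values, and the test is the exact two-sided permutation of signs over 3 library differences. The libraries are separate biological replicates per the labels, and no 2 lists shared a peak with identical values. Library ranks printed for a peak are the best among overlapping peaks. Genes were named by rule: the 20 strongest promoter peaks, the 5 strongest intron and intergenic peaks, every bound list member (4 for longer lists), and genes at the widest gap and in the densest windows. Coding, host-gene and weakest-peak examples, and unbound list members, were named after their values were seen. Members, lists and tests were chosen with earlier results of these data known. List members were matched by symbol or by RefSeq synonym, and phm was not matched. X peaks repeating the interval of another peak numbered 8. Classification, motif search and test were tested on simulated data. Python 3.11.15, NumPy 2.4.6, pandas 2.3.3, SciPy 1.17.1 and matplotlib 3.10.9 were used. Alternatives changed the promoter window (250 and 1000 bp), annotation, summit position, peak number, repeated intervals, centromere-proximal sequence (2 and 6 Mb), blocks with few summits, motif window, build and each library.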

Additional observations from a re-analysis of the deposited data

How the results depend on the processing

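The higher intron share and lower intergenic share of the X kept their direction in all 11 alternatives, at 11.6 to 15.7 and -11.3 to -8.92 percentage points. The promoter share (-7.29 to -3.94) and spacing (-0.19 to -0.09, log2) kept theirs. The density ratio (log2) was 0.25 per start site, 0.03 with the strongest 3858 peaks, and 0.15 and 0.06 without 2 and 6 Mb next to the centromere. It turned to -0.0051 without 1 Mb blocks of fewer than 10 summits. Those blocks were chosen by the count being compared, so that setting cannot decide where the X is denser. The 6 Mb and block settings were chosen after seeing the data. The both-strand share (-16.3 to -5.48 points), the distance to a start (12.5 to 53.0 bp) and the percentile of both-strand promoter peaks (-21.3 to -5.86) kept their direction. Each was run in 6 alternatives that were chosen after seeing the data. With the strongest 3858 peaks alone, the median percentile turned to 0.933, that of promoter peaks to 0.492, that of one-strand promoter peaks to 3.45, the share of bound genes to -1.75 points, DRE to -0.667, CGATA to -2.50 and GAGAGAG to -0.660 points; the cause was not tested. Leaving out 1 library each used shorter lists, of 6334, 6548 and 6361 peaks without replicates 1, 2 and 3, so peak number changed too. Bound genes then stood at -0.405 (without replicate 1) to 0.0396 points, although replicates 2 and 3 by themselves gave 0.605 and 1.38. The one-strand promoter peaks ranged from -0.505 to 0.527 and turned without replicate 2. DRE ranged from -0.216 (without replicate 1) to 0.740 points. Without replicate 3, bound genes stood at -0.0464, the median percentile at -2.05 and the spacing at -0.09. The promoter percentile was -12.1 with a 250 bp window and -4.91 with 1000 bp, and one-strand peaks stood at -8.07 with 250 bp. Bound genes stood at 0.0342 with 250 bp, 0.0341 with protein-coding genes alone, and 0.941 and 2.07 without 2 and 6 Mb next to the centromere. The dm3 list, with 1448 of 7544 peaks on the X, was used for spacing and percentile. Density in dm3 was not run, since dm3 arm lengths were not used here. Depth is unknown, and 3 libraries of 1 group cannot bring the exact permutation test below p = 0.25.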
